A study of Mus musculus with 10 samples.

Results

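The EGF receptor family and its ligands were followed in mouse tumours grown from 4T1, a cell line derived from a BALB/c mammary carcinoma. The members are 3 receptor genes (Egfr, Erbb2 and Erbb3), 6 genes of ligands that bind the EGF receptor (Areg, Ereg, Hbegf, Tgfa, Btc and Epgn) and Nrg1, which encodes a neuregulin. They were chosen by gene symbol, and all 10 were found among the 18047 genes of the deposited table. RNA was sequenced from frozen, sectioned tumours that had grown for 3 weeks in BALB/c mice, in 10 libraries: 5 from 4T1 cells with a gene knocked out (KO) and 5 from wild-type 4T1 cells (WT). Both groups carry the same treatment label, growth in vivo, and no drug. The labels give neither the age of the mice nor whether the KO line is a single clone. Since no library is tied to an animal in the labels, the p-values reflect variation among libraries, which may be technical.

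ERBB receptors are cell-surface tyrosine kinases that signal in pairs. ERBB2 has no known ligand of its own and serves as a partner, while ERBB3 has a weak kinase and binds neuregulins. The ligands are made as membrane-bound precursors and released by proteases such as ADAM17, and in the mammary gland AREG is known for its part in the growth of ducts.

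The 10 libraries held between 8609756 and 19934428 reads. Values are normalized read counts, that is reads divided by a size factor of the library, so they can be compared between libraries for a given gene. For comparison between genes they were divided by the length of each gene's merged exons, in kb. The 6 fixed markers of carcinoma epithelium were present in every library, with a summed level of 12916 to 17650 normalized counts in KO and 17181 to 29132 in WT. An unexplained prefix, RESUB, opens the library names of WT1, WT2, WT3, WT4 and KO5, and WT2 and WT5 share the library number 170, so that they may come from 1 tumour. WT2, WT3 and WT5 stand apart by RNA of keratinocytes: Krt1, a keratin of the epidermis, was at 44.6, 1152 and 343 normalized counts in them and at 0 in the other 7. WT2 stands apart further by muscle and fat: the 8 skeletal muscle markers summed to 107610 normalized counts there and to between 581 and 10921 elsewhere, and the 6 adipocyte markers to 8449 there and to at most 4497 elsewhere.

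None of the 10 genes passed the threshold between KO and WT tumours. By limma's test, adjusted over all 17975 genes tested, 0 of 10 were called, where 0.00556% of all tested genes were. At an unadjusted p under 0.05 there were 2 of 10, Erbb3 and Btc, both lower in KO, against 6.49% of all tested genes in either direction and 3.67% lower in KO. edgeR, which called 0.00556% of all genes, and DESeq2, which called 0.676%, each called 0 of 10. The KO and WT libraries overlapped for each of the 10 genes, while 1.42% of all tested genes had groups that did not overlap. Of the 10, 6 had higher and 4 had lower fitted values in KO, with a median log2 difference of 0.12, beside -0.01 over all tested genes. All 10 passed the filter on low values, a mean of at least 10 normalized counts.

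**Figure D1:**
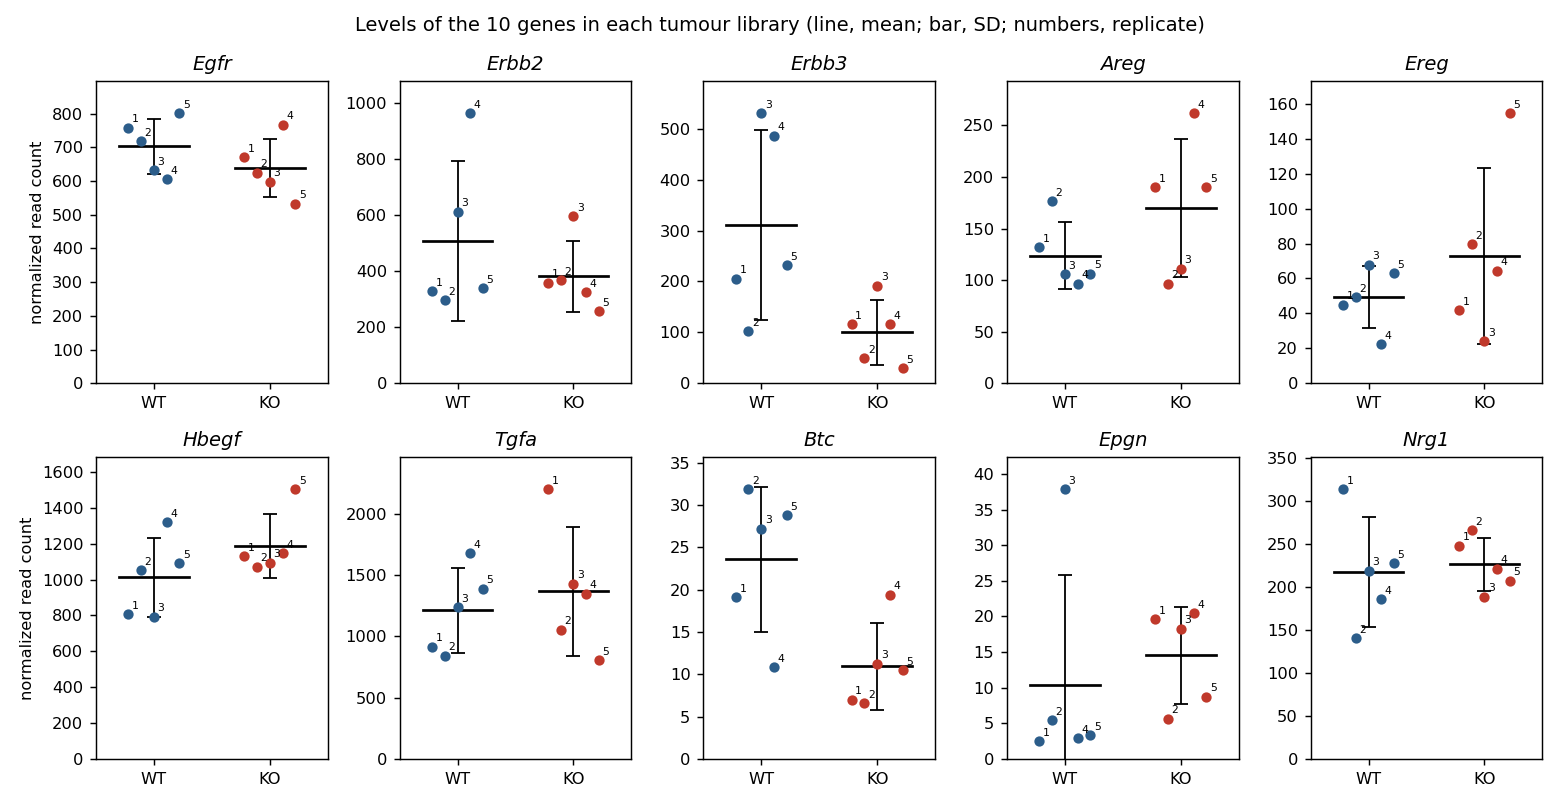
Normalized read counts (vertical axes, linear from 0) of the 10 genes in the 5 WT and 5 KO libraries. Each point is a library numbered by its replicate, the line is the mean and the bar the SD, which is cut at 0 for Epgn in WT. Erbb3 and Btc have the clearest shift between groups, and WT3 stands alone for Epgn.

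**Figure D2:**
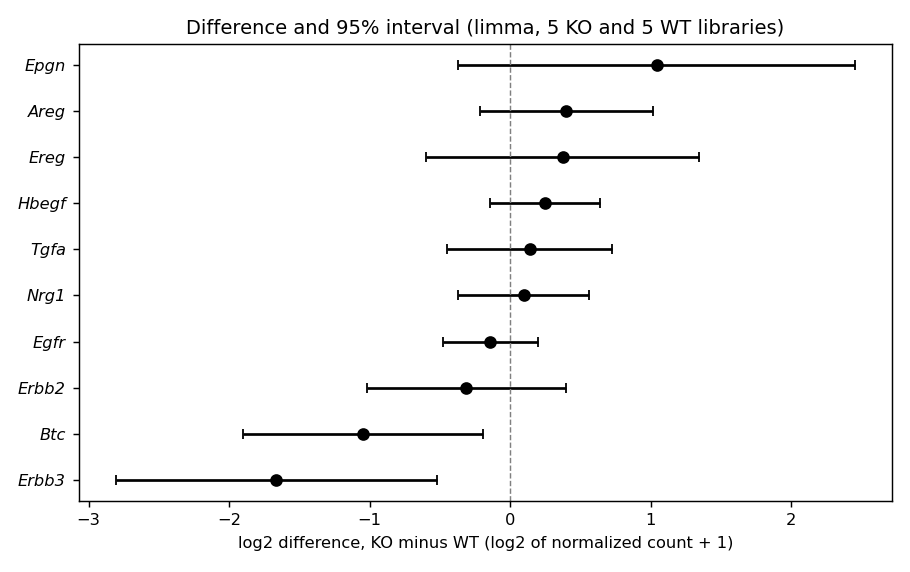
Fitted log2 difference of each gene, KO minus WT (horizontal axis, log2 of the normalized count plus 1), with its 95% interval from limma over 5 KO and 5 WT libraries. Only the intervals of Erbb3 and Btc leave out 0, before any adjustment for the number of genes tested.

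Among the receptors, Erbb3 had the largest difference, and Egfr was the steadiest of the 3. Erbb3 (ENSMUSG00000018166, GRCm38 chromosome 10, 128567523 to 128589652, minus strand) was at 116.0, 48.8, 191, 115 and 29.7 normalized counts in KO1 to KO5. In WT1 to WT5 it was at 205, 102, 530, 487 and 232. WT1, WT3, WT4 and WT5 lay above all KO libraries, while WT2 lay within the KO range. The group means were 100.2 ± 64.0 for KO against 311 ± 187 for WT (SD, 5 libraries each), a log2 difference of -1.66 ± 0.53 (SE), with a 95% interval of -2.81 to -0.52. Its unadjusted p was 0.00777 and its limma adjusted p 0.589, so it did not pass. edgeR gave an adjusted p of 0.459 and DESeq2 one of 0.0933, and over all alternatives it ran from 0.0540, with sample weights, to 0.99996.

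Markers of the carcinoma cell moved with Erbb3. All 6 had lower fitted values in KO, 5 of them at an unadjusted p under 0.05 and 0 past the threshold in limma. Over all tested genes, 3.67% were lower in KO at that unadjusted level. The mean log2 level of the 6 markers per library ran from 10.24 to 10.94 in KO and from 10.86 to 11.90 in WT. None of the 6 was at 0 in any library. Epcam, an epithelial adhesion molecule, was at 1317 ± 613 normalized counts in the KO tumours against 2956 ± 923 in the WT tumours. Its log2 difference of -1.26 was the largest of the 6. Cdh1, Krt7 and Krt19 were at -0.96, -0.77 and -0.74. Krt18 and Krt8, the most abundant of the 6, were at -0.43 and -0.29 (limma unadjusted p = 0.237 for Krt8). Erbb3, at -1.66, differed more than each of the 6. With the marker level as a covariate, the log2 difference of Erbb3 was -0.21 (limma unadjusted p = 0.761). Its adjusted p of 0.99996 there is shared by all 10 members. The marker level nearly separates KO from WT, so this fit cannot tell its part from that of the group. In these bulk samples fewer carcinoma cells and less Erbb3 RNA per carcinoma cell cannot be told apart. Markers of some other cell types also had lower fitted values in KO. These were all 8 of skeletal muscle, 0 of them at an unadjusted p under 0.05 in limma, and 4 of 5 of mast cells, 4 at that level. Higher in KO were all 6 of T cells, all 5 of neutrophils and 5 of 6 of macrophages. Among WT libraries Erbb3 was lowest in WT2, which had the most muscle RNA, and highest in WT3, which had the least. The part of these cell types in the difference of Erbb3 was not tested. The 10 keratinocyte and hair markers all had lower fitted values in KO. WT3 was the highest library for their summed level, at 12070 normalized counts, as it was for Erbb3. WT4 had the lowest summed level of the WT libraries, at 535, with Erbb3 at 487. Without WT2, WT3 and WT5 the log2 difference of Erbb3 was -1.93, and with the keratinocyte marker level as a covariate -1.47. That marker level also nearly separates KO from WT, so its part cannot be told from that of the group. Of 6 measured Schwann cell and nerve markers, 5 had lower fitted values in KO, 1 of them (Mbp, a myelin gene, at -0.59) at an unadjusted p under 0.05, and their summed level was 726 to 987 in KO and 900.1 to 1178 in WT. Sox10, a transcription factor of Schwann cells, was at 12.6, 0, 28.1, 41.9 and 0.87 normalized counts in KO1 to KO5. In WT1 to WT5 it was at 15.8, 24.6, 6.80, 44.9 and 15.5. It was lowest in KO2 and KO5, the libraries with the least Erbb3, but next lowest in WT3, the library with the most. With the RESUB prefix as a term the difference of Erbb3 was -2.14. It was -3.15 within the prefixed libraries (KO5 against 4 WT) and -1.12 within the others (4 KO against WT5).

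Erbb2 (ENSMUSG00000062312, chromosome 11, 98412470 to 98437716, plus strand) varied more within the groups than between them. Its KO libraries were at 358, 367, 596, 325 and 257 normalized counts. Its WT libraries were at 328, 295, 611, 962 and 338. WT4, WT3 and KO3 were high, and the other 7 lay between 257 and 367. Its log2 difference of -0.31 ± 0.33 (SE) came with a 95% interval of -1.02 to 0.40, which holds both signs (limma adjusted p = 0.948). Its sign depended on the fit: it was 0.49 with the carcinoma marker level as a covariate and 0.24 within libraries lacking the RESUB prefix, and it was -0.04 without WT4. It shares 9 exonic bases with Mien1. Across genes, the deviation of WT4 from the mean of all libraries was correlated with GC content at 0.521. The longest Erbb2 transcript has 57.3% GC, and with trends of GC content and length removed from each library the difference of Erbb2 was -0.14.

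Egfr (ENSMUSG00000020122, chromosome 11, 16752203 to 16918158, plus strand) encodes the receptor that binds all 6 of the EGF receptor ligands named here. It was at 671, 625, 598, 767 and 533 normalized counts in KO1 to KO5. In WT1 to WT5 it was at 758, 718, 632, 606 and 801. The groups overlapped, and the spread within each was small, with a coefficient of variation of 13.7% in KO and 11.7% in WT. The log2 difference was -0.14 ± 0.16 (SE), with a 95% interval of -0.48 to 0.20 (limma adjusted p = 0.950), which corresponds to 0.718 to 1.15 times its WT level. It was -0.078 without KO5, -0.21 without KO4 and -0.31 with the RESUB prefix as a term.

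The mix of receptor RNA can be read per kb of exon within each library. Erbb3 made up 13.1%, 6.07%, 16.0%, 12.9% and 4.87% of the summed receptor level in KO1 to KO5. In WT1 to WT5 it made up 20.8%, 12.4%, 33.7%, 25.4% and 22.1%. WT2 was again the WT library inside the KO range. The level of Erbb3 relative to that of its partner Erbb2 ran from 0.10 to 0.31 in KO and from 0.30 to 0.75 in WT, and only KO4 and WT2 overlapped. Egfr and Erbb2 took shares of 40.0% ± 8.0 and 49.4% ± 6.0 in KO, against 33.2% ± 13.2 and 44.0% ± 8.3 in WT (SD, n = 5). The summed receptor level was 146 ± 35.3 per kb in KO and 211 ± 76.2 in WT, with WT3 and WT4 at 261 and 319. These shares follow from the levels above and were not tested.

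**Figure D3:**
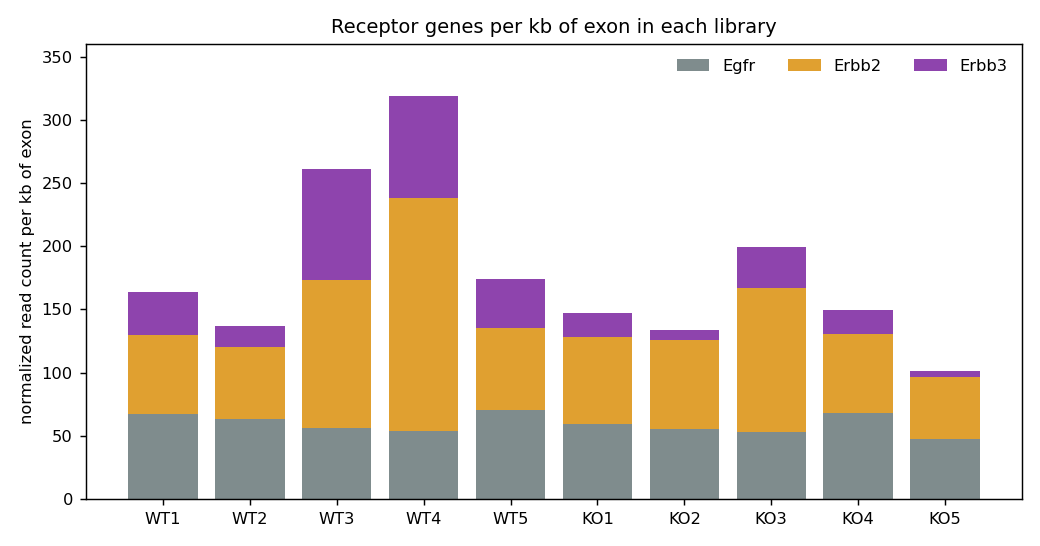
Normalized read counts per kb of exon (vertical axis, linear from 0) of Egfr, Erbb2 and Erbb3, stacked for each of the 10 libraries. The Egfr segment lies between 47.1 and 70.7 in all libraries, the Erbb2 segment is tall in WT4, WT3 and KO3, and the Erbb3 segment is thin in KO2 and KO5.

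Of the ligand genes, 4 lie close together on chromosome 5 of GRCm38: Epgn (ENSMUSG00000035020, 91027464 to 91035215), Ereg (ENSMUSG00000029377, 91074622 to 91093646) and Areg (ENSMUSG00000029378, 91139599 to 91148432) on the plus strand, and Btc (ENSMUSG00000082361, 91357261 to 91402994) on the minus strand. Promoters were matched by symbol for 6 of the 10 members in RefSeq's table for GRCm38.p6. Those of Areg, Epgn and Btc are printed because these neighbours had fitted differences of unlike sign. Each sequence is the stretch before the gene's start, up to 250 bases, with bases inside an annotated exon of the gene left out, and runs 5′ to 3′ on the gene's strand. Capitals mark the letters of a cyclic AMP response element (TGACGTCA) or of a TATA box (TATAAA), searched on both strands. The windows are chr5:91139349-91139598 on the plus strand for Areg, chr5:91027267-91027463 on the plus strand for Epgn and chr5:91402995-91403244 on the minus strand for Btc.
Areg: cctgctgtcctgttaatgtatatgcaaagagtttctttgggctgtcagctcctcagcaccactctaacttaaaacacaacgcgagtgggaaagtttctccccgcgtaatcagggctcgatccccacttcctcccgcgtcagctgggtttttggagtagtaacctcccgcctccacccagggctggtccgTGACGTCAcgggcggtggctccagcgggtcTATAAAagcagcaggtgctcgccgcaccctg
Epgn: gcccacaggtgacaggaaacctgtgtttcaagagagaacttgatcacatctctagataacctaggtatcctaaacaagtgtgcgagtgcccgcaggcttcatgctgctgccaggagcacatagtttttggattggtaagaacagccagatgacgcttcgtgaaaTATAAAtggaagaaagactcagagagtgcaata
Btc: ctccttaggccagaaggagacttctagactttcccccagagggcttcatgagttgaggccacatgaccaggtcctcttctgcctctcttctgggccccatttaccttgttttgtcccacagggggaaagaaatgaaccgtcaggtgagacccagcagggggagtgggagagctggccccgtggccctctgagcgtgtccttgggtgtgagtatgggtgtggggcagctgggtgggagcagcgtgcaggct

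The Areg window holds both motifs, the Epgn window the TATA box alone, and the Btc window neither. Over the 32851 promoters of the table, 1.55% hold the response element and 12.4% the TATA box in their 250 bases before the start. The AP-1 motif (TGANTCA), present in 6.75% of promoters, was not found in any of the 6 members' windows. These are matches of letters and were not measured as binding.

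Areg, the gene of amphiregulin, was higher on average in KO but did not pass. It was at 190.1, 96.6, 111, 262 and 190.3 normalized counts in KO1 to KO5. In WT1 to WT5 it was at 132, 177, 106, 96.3 and 106. KO1, KO4 and KO5 lay above every WT library, and KO2 and KO3 lay within the WT range. The fitted difference was 0.40 ± 0.28 on the log2 scale (SE), with a 95% interval of -0.22 to 1.01 (limma adjusted p = 0.891). It was above 0 under all 28 alternatives, from 0.21 to 0.61.

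Ereg, the gene of epiregulin, was at 41.9, 79.7, 23.9, 64.4 and 154.5 normalized counts in KO. It was at 44.9, 49.2, 68.0, 22.4 and 63.1 in WT. KO5 was the highest library and the groups overlapped over most of their range, although KO2 also lay above every WT library. The log2 difference was 0.38 ± 0.45 (SE), with a 95% interval of -0.60 to 1.35 (limma adjusted p = 0.951). It was 0.04 without KO5. It turned to -0.52 with the carcinoma marker level as a covariate and to -0.40 within libraries lacking the RESUB prefix, and within the prefixed libraries it was 1.82. Ereg shares 141 exonic bases with an antisense gene, whose reads cannot be told apart from its own where the use of strand is not given.

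Btc, the gene of betacellulin, was lower on average in KO and did not pass. It was at 6.99, 6.56, 11.2, 19.4 and 10.5 normalized counts in KO1 to KO5. In WT1 to WT5 it was at 19.1, 31.9, 27.2, 10.9 and 28.8. WT2, WT3 and WT5 lay above every KO library, and KO1, KO2 and KO5 below every WT library. WT4 lay among the KO libraries, and KO4 just above WT1. The highest library, WT2, is also the one with the most muscle and adipocyte RNA, whose part was not tested. The means were 10.9 ± 5.2 and 23.6 ± 8.5 (SD, n = 5 each), a log2 difference of -1.05 ± 0.40 (SE), with a 95% interval of -1.90 to -0.20. The unadjusted p was 0.0199 and the limma adjusted p 0.693. The gene rests on 5 to 35 reads per library.

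The libraries with most Btc are those with keratinocyte RNA. The 10 keratinocyte and hair markers had a summed level of 202.6 to 490.5 normalized counts in KO and of 535 to 12070 in WT. All 10 had lower fitted values in KO, each at an unadjusted p under 0.05 and 0 past the threshold in limma. Over all tested genes, 3.67% were lower in KO at that unadjusted level. The count is no independent test, as the list was chosen with earlier results of these data known. Krt1 and Flg2, genes of the outer epidermis, were at 0 in all KO libraries and in WT1 and WT4. These and Dsg1a, also at 0 in all KO libraries, passed the filter on low values only through WT libraries. So did Krt79, Lor, Ivl and Krtdap, with KO means of 0.69, 0.58, 0.70 and 0.49 normalized counts. For all of these genes the filter fixed the direction of the difference in advance. Without WT2, WT3 and WT5 the log2 difference of Btc was -0.47 (limma adjusted p = 0.800). With the keratinocyte marker level as a covariate it was -0.43 (limma adjusted p = 0.880). The first fit leaves out the 3 libraries with most Btc, so a smaller difference was to be had in any case. The mean log2 marker level, 1.24 to 2.37 in KO and 2.20 to 9.29 in WT, nearly separates the groups. Neither fit can therefore tell the part of keratinocyte RNA from that of the group, and that part was not tested.

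Epgn, the gene of epigen, had the highest difference of the 10 in the limma fit, on very few reads. It was at 19.6, 5.63, 18.3, 20.4 and 8.73 normalized counts in KO1 to KO5. In WT1, WT2, WT4 and WT5 it was at 2.49, 5.46, 2.90 and 3.32, and in WT3, the library with the most keratinocyte RNA, at 37.9. All 5 KO libraries lay above these 4 WT libraries and below WT3. KO2 and WT2 had 6 reads each, so their order comes from the size factors alone. The log2 difference was 1.04 ± 0.66 (SE), with a 95% interval of -0.37 to 2.46 (limma adjusted p = 0.874), from 3 to 39 reads per library. It was 1.67 without WT3 (limma adjusted p = 0.412), 1.93 without the 3 libraries with Krt1 reads (limma adjusted p = 0.615) and 2.40 with the keratinocyte marker level as a covariate (limma adjusted p = 0.846). As the keratinocyte marker level nearly separates KO from WT, the fit with it cannot tell its part from that of the group. Other settings lowered the difference of Epgn: it was 0.65 with a pseudocount of 5, 0.48 in edgeR and 0.48 in DESeq2. Ereg was higher than Epgn in edgeR and DESeq2, at 0.58 and 0.57. Within the KO libraries the mean log2 level of the 10 keratinocyte markers was 1.80, 1.24, 1.92, 2.37 and 1.58 in KO1 to KO5, highest in the same 3 libraries as Epgn. Among these markers Krt5 was at 15.4, 0, 23.9, 81.8 and 0 normalized counts, while Krt1, Flg2 and Dsg1a were at 0 in all 5. Krt14, at 264, 173, 335, 381 and 326 in KO1 to KO5, made up most of the summed level of the list in each KO library. Whether these markers reflect keratinocytes in the KO libraries, and whether they bear on the Epgn values there, was not tested.

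**Figure D4:**
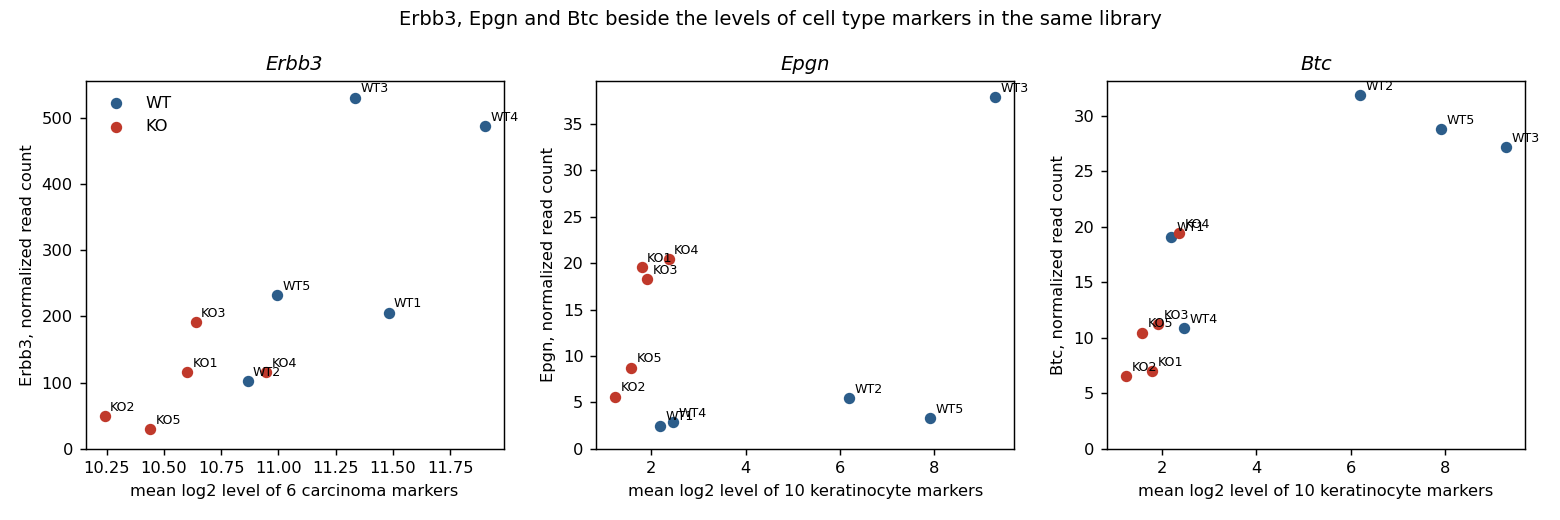
Normalized read counts (vertical axes, linear from 0) of Erbb3, Epgn and Btc in the 10 libraries against the mean log2 level of the 6 carcinoma or 10 keratinocyte markers in the same library (horizontal axes). Erbb3 is low where the carcinoma level is low, WT2, WT3 and WT5 have the most Btc, and Epgn is high in WT3 but not in WT2 or WT5.

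Hbegf and Tgfa were the most abundant ligand genes per kb of exon. Hbegf (ENSMUSG00000024486, chromosome 18, 36504927 to 36515805, minus strand), which encodes heparin-binding EGF-like growth factor, was at 1129.7, 1071, 1094, 1147 and 1504 normalized counts in KO1 to KO5. In WT1 to WT5 it was at 805, 1051, 793, 1318 and 1090.0. WT1, WT2 and WT3 lay below every KO library, and KO5 above every WT library. The log2 difference was 0.25 ± 0.18 (SE), with a 95% interval of -0.14 to 0.64 (limma adjusted p = 0.893), and it was above 0 under all 28 alternatives. It was 0.16 without KO5 and, by prefix, 0.026 within the libraries that lack it and 0.63 within those that carry it.

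Tgfa (ENSMUSG00000029999, chromosome 6, 86195223 to 86275719, plus strand), which encodes transforming growth factor alpha, was at 2201, 1055, 1430.0, 1347 and 804 normalized counts in KO. It was at 916, 841, 1236, 1680 and 1388 in WT. KO1 was the highest and KO5 the lowest of all 10 libraries, so the KO range enclosed the WT range. Between the groups the log2 difference was 0.14 ± 0.27 (SE), with a 95% interval of -0.45 to 0.73 (limma adjusted p = 0.971). It turned to -0.05 without KO1, to -0.21 with the RESUB prefix as a term and to -0.48 within the prefixed libraries. Tgfa shares 118 exonic bases with another annotated gene.

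Nrg1 (ENSMUSG00000062991, chromosome 8, 31814551 to 32884029, minus strand) encodes a neuregulin that binds ERBB3 and ERBB4. It was at 247, 265, 188, 221 and 207 normalized counts in KO and at 313, 140.2, 218, 185 and 227 in WT. WT1 was the highest and WT2 the lowest library, so the WT range enclosed the KO range. The log2 difference was 0.10 ± 0.22 (SE), with a 95% interval of -0.37 to 0.56 (limma adjusted p = 0.974). It turned to -0.05 without WT2 and to -0.22 with sample weights. Nrg1 shares 482 exonic bases with a long noncoding RNA gene.

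Per kb of exon, the mean levels over the 10 libraries gave the order Hbegf (228 normalized counts per kb), Tgfa (199), Areg (121), Erbb2 (85.1), Egfr (59.2), Erbb3 (34.2), Nrg1 (21.4), Ereg (14.8), Epgn (6.90) and Btc (3.82). The ranges over libraries of each pair of neighbours in that order overlapped. Hbegf ran from 164.1 to 311 per kb and Tgfa from 124 to 339, and Btc, the least abundant, from 1.45 to 7.05. Hbegf and Tgfa together held most of the RNA of the 6 EGF receptor ligands in both groups, at 40.1% ± 7.4 and 33.5% ± 9.8 of the summed per-kb level in KO, against 39.9% ± 3.9 and 35.5% ± 6.7 in WT (SD, n = 5). Areg followed at 21.9% ± 6.2 in KO and 20.01% ± 6.5 in WT. The sum over the 6 ligands was 625 ± 105 per kb in KO and 521 ± 70.4 in WT.

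Some genes followed a member closely across the 10 libraries. By Pearson's r of log2 levels, the 3 genes most like Erbb3 were Smarca2 (0.981), Il17re (0.961) and Epb41l4b (0.957). Their log2 differences between KO and WT were -0.35, -1.87 and -0.87. The 3 most like Erbb2 were Zfp687 (0.986), Dlgap4 (0.979) and Dvl3 (0.978), which shared its high levels in WT4, WT3 and KO3. The 3 most like Egfr were Abca5 (0.912), Gm7331 (0.900) and Gm15675 (0.889), and the 3 most like Hbegf, the most abundant ligand gene, were AU022252 (0.937), Ifnar1 (0.927) and Sumf1 (0.920). These genes were picked as the highest of all tested genes with a symbol, over libraries that differ in depth and GC trend, so the values are a description.

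Other genes of the pathway showed no difference past the threshold. Of a list of 65, 63 were in the table and tested, with 33 higher and 30 lower fitted values in KO and a median log2 difference of 0.02. None was called by limma or edgeR, which each called 0.00556% of all tested genes, or by DESeq2, which called 0.676%. With shares so low, 0 called says little about this list. In limma 0 of 63 had an unadjusted p under 0.05, against 6.49% of all tested genes. In edgeR 2 did, where 469 of 17975 genes were higher in KO and 847 lower at that level. In DESeq2 also 2 did, where 517 of 17911 were higher and 892 lower. The smallest p of the list belonged to Rhbdf1, the gene of an inactive rhomboid protein that helps ADAM17 to mature, at 583 ± 136 normalized counts in KO tumours against 857 ± 290 in WT tumours (SD, n = 5), a log2 difference of -0.52 ± 0.24 (SE) with an unadjusted p of 0.0513. Adam17 itself, the main sheddase of Areg, Hbegf and Tgfa, had 1651 ± 251 against 1371 ± 191 (log2 difference 0.26). Egf, the founding ligand of the family, was scarce, at 15.7 ± 5.0 against 34.5 ± 23.4 (log2 difference -0.91, unadjusted p = 0.0552), with WT2 and WT5 at 71.0 and 44.3. Nrg2, another neuregulin gene, was at a log2 difference of 0.33.

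Signalling genes downstream of the receptors were not called either. Among 16 adaptor and ERK cascade genes, 8 were higher and 8 lower. The 2 with the smallest p were Ptpn11, the gene of the phosphatase SHP2 (-0.26), and Gab1, the gene of a docking protein (-0.36). Among 11 genes of the PI3K, phospholipase and STAT arms, 3 were higher and 8 lower, with the PI3K regulatory subunit gene Pik3r2 at -0.31 and the transcription factor gene Stat5b at -0.24. Negative regulators numbered 16, with 13 higher and 3 lower fitted values and a median log2 difference of 0.10. Over all tested genes 8804 of 17975 were higher. Of the 16, 0 had an unadjusted p under 0.05 in limma, and the sign count was not tested. Lrig1, a membrane protein that promotes the breakdown of ERBB receptors, was at 2122 ± 501 normalized counts in KO against 1657 ± 640 (log2 difference 0.40), and Rnf41, the gene of a ubiquitin ligase that acts on ERBB3, had 717 ± 38.4 against 619 ± 66.1 (log2 difference 0.22). Of 12 genes that ERK signalling is known to induce, 4 were higher and 8 lower, with Ier3 at 0.42 and Myc at -0.33.

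**Figure D5:**
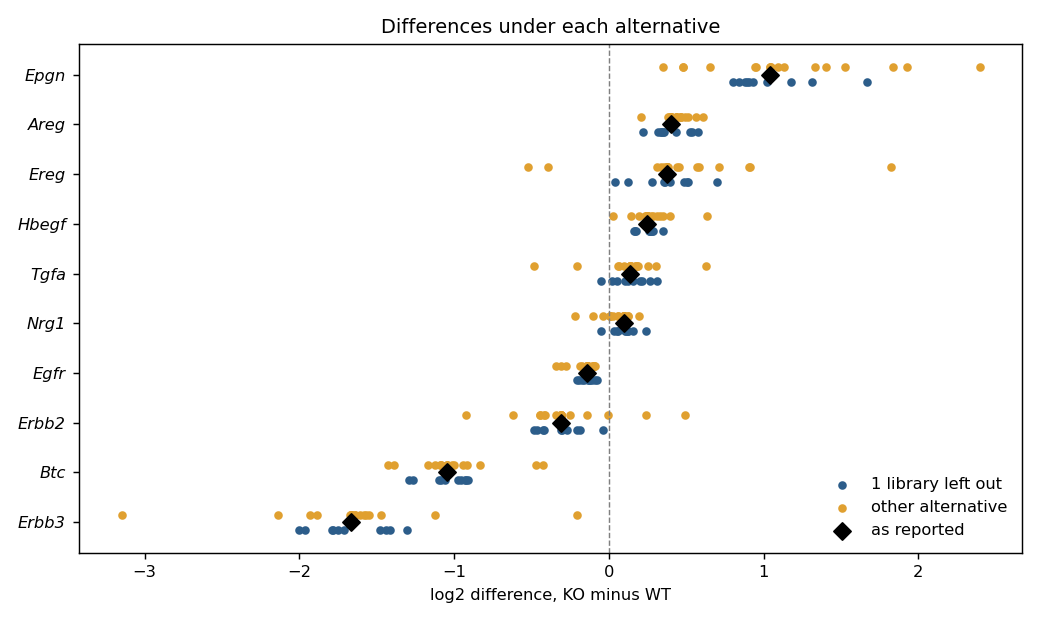
Log2 difference of each gene, KO minus WT (horizontal axis), as reported (diamond), with 1 library left out (blue) and under the other alternatives (orange). Erbb3, Btc and Egfr stay below 0 and Areg, Hbegf and Epgn above it under every alternative drawn, while Erbb2, Ereg, Tgfa and Nrg1 fall on both sides.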

How the data were processed

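Per the labels' protocols, libraries were made from column-purified total RNA after removal of DNA and ribosomal RNA. The deposited values are gene-level signal, read counts that the authors divided by 1 size factor per library: divided by the size of a single read's step, 100% of them come out whole (tolerance 0.0001), and the recovered factors equal the median-of-ratios factors. The submitters' processing notes name bcl2fastq 2.17 and GRCm38. Aligner, read counter, strand setting and handling of molecular identifiers are not given in the sources used here. Symbols, positions and exon lengths came from GENCODE M21 (17953 of 18047 IDs had a symbol).

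Differences between KO and WT were fitted by limma 3.58.1 under R 4.3.3, with its trend option, to log2 values with a pseudocount of 1, for the 17975 genes with a mean of at least 10 (72 were below), with Benjamini-Hochberg adjustment at 0.05, two-sided. The pseudocount shrinks the differences of low genes. As alternatives the recovered reads were tested in edgeR 4.0.16 and in DESeq2 1.42.0. Other alternatives changed the pseudocount, filter, scaling, weights, covariates and libraries. Named besides the members are the 2 pathway genes of each sublist with the smallest p. The 3 genes most like each receptor and the most abundant ligand are named too, as are markers set beside a member. Members and lists were chosen with earlier results of these data known. WT2 and WT5, which share the number 170, had a chi-square per degree of freedom of 147, within the 39.0 to 182 of the WT pairs. That value cannot tell whether they come from 1 tumour, and they were kept apart. With the pair averaged, the log2 difference was -1.89 for Erbb3 and -0.94 for Btc. A check of the knocked-out gene is not reported here. Figures were drawn with matplotlib 3.10.9.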

Additional observations from a re-analysis of the deposited data

Results flagged for a closer look

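Of 44 groups of 5 libraries examined (10 members and 12 pathway genes, each in KO and WT), 4 had a library whose gap to the nearest other exceeded 0.71 of the group's range, and chance alone gives about 1 in 20 such groups. Epgn was at 37.9 normalized counts in WT3, where the next WT library was at 5.46. Hbegf was at 1504 in KO5, where the next KO library was at 1147. Myc was at 2231 in WT4, where the next WT library was at 1274. Ptpn11 was at 2155 in KO1, where the next KO library was at 1681.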

How the results depend on the processing

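The count of members and of pathway genes called was 0 under every alternative run. The count over all genes, 1 as reported, was 121 with DESeq2, 408 with sample weights and 52 within the libraries without the RESUB prefix, and 0 within the prefixed libraries, with the pair numbered 170 averaged, without WT2, WT3 and WT5, and with either marker level as a covariate. With 1 library left out it ran from 0 to 3, the highest without WT2. Of the members, Egfr, Erbb3, Areg, Hbegf, Btc and Epgn kept their sign under all alternatives that could test them. Btc and Epgn are not tested under a minimum mean of 50 normalized counts. Erbb2 turned to 0.24 within the libraries without the prefix and to 0.49 with the carcinoma marker level. Ereg turned to -0.40 and -0.52 under the same settings. Tgfa turned to -0.21 with the prefix as a term and to -0.48 within the prefixed libraries. Nrg1 turned to -0.22 with sample weights, to -0.10 without WT2, WT3 and WT5 and to -0.035 with the keratinocyte marker level. With 1 library left out Tgfa ran from -0.053 (without KO1) to 0.31 and Nrg1 from -0.048 (without WT2) to 0.24. The cause of these changes was not tested. Fits within 1 prefix group hold 1 KO or 1 WT library, which is assumed to vary like the others. With the replicate number as a block, the difference of Erbb3 was -1.66 (limma adjusted p = 0.230), 1 gene was called over all genes and 0 members were. The numbers do not pair the samples: the deviations of same-numbered KO and WT libraries were correlated at 0.017, 0.099, 0.518, 0.026 and -0.229. Btc and Epgn rest on 5 to 35 and 3 to 39 reads per library, and how much of their spread is counting error was not tested.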
